A study of Schizosaccharomyces pombe with 12 samples.

Results

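The protein-coding genes of the fission yeast mitochondrial genome were followed by RNA sequencing in cells kept in heavy water (D2O), in which the hydrogen of the water is deuterium. The 8 genes were chosen by identifier, with no measured value, among the 7015 features of the deposited tables. They are cox1 (SPMIT.01), cox2 (SPMIT.11) and cox3 (SPMIT.04) of cytochrome c oxidase, cob1 (SPMIT.05) of the cytochrome bc1 complex, atp6 (SPMIT.07), atp8 (SPMIT.09) and atp9 (SPMIT.10) of ATP synthase, and var1 (SPMIT.08) of the mitochondrial ribosome. The tables list 38 features of the mitochondrial genome: these 8 genes, 3 reading frames inside introns, 25 tRNAs and 2 rRNAs. All samples were wild-type Schizosaccharomyces pombe without selection markers, grown exponentially in YES, a rich yeast extract and glucose medium. The control group (S0) was grown in YES made with H2O, a second group (S5) spent 5 h in YES made with 100% D2O, and the last (S24) spent 24 h in it. Each group has 4 samples, which the design text calls independent, and total RNA was isolated with hot phenol. No H2O culture of matched duration was analysed here, so the D2O and the time or handling that went with it cannot be told apart.

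Mitochondrial DNA is transcribed by its own RNA polymerase into long precursors, which are cut, largely at the tRNAs between the genes, into mRNAs, rRNAs and tRNAs. The few proteins it encodes are core membrane subunits of the respiratory chain and of ATP synthase, and each is assembled with partners that are encoded in the nucleus, made in the cytosol and imported. S. pombe has no complex I, ferments glucose readily and normally cannot do without its mitochondrial DNA.

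In the RefSeq annotation of assembly ASM294v3 the 8 genes lie on 1 strand in the order cox1, cox3, cob1, atp6, var1 (named rps3 there), atp8, atp9 and cox2. The cox1 gene has 2 group I introns, which hold the reading frames SPMIT.02 and SPMIT.03, and cob1 has 1 group II intron, which holds SPMIT.06. The deposited tables name no genome build, and for 6 of the 8 genes their feature length equalled the RefSeq coding length. RefSeq was therefore used for names and order alone. The features run from 147 bases for atp8 and 225 bases for atp9 to 1614 bases for cox1.

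Each table summed to between 26775612 and 27166349 counts, and all 8 genes passed the filter on low counts. Levels of one gene across samples are given as CPM, the read count normalised to the TMM-scaled library size, and levels of different genes are compared as RPKM, reads per kilobase of feature relative to the column total. One library of each D2O group stood apart for several of these genes. Replicate 4 of the 5 h group had 860 counts on the mitochondrial rRNAs, the lowest of the 12 samples. It was lowest of its group in each of the 8 genes except atp9, in which it was highest. Replicate 2 of the 24 h group had 3698, the highest. It was highest of its group in cob1, cox3, atp6, var1 and atp8, and lowest in cox1 and cox2. In that library nuclear rRNA took 2.84% of the counts, whereas the other 11 had between 0.0617% and 0.717%. Several of the log2 changes and calls that these libraries touch are given with and without both, a choice made after the counts were seen. Ratios within samples, shares of counts and correlations are given with all 12 samples. Leaving out libraries picked for extreme values in these genes narrows the spread within groups. Calls and adjusted p-values without them therefore lean towards significance and are given as description. The part of these libraries in the results was not tested.

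The 8 genes did not move as a block. A gene was called changed at an adjusted p under 0.05 in edgeR's quasi-likelihood test, with Benjamini-Hochberg adjustment over the 6683 features tested. At 5 h in D2O 4 of the 8 were called, with cox1 and atp8 higher and cox2 and atp9 lower, in a comparison in which 76.4% of all tested features were called (39.1% higher, 37.3% lower). At 24 h 6 were called, with cox1 higher and cox2, cox3, atp6, var1 and atp9 lower, against 81.2% of all features (41.8% higher, 39.4% lower). From 5 h to 24 h 4 were called, with cox2, cox3, cob1 and atp6 lower and none higher, against 68.3% of all features (33.6% higher, 34.6% lower). At an unadjusted p under 0.05, and by DESeq2, none was higher in that last comparison either.

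The median log2 change of the 8 genes was -0.10 at 5 h, -0.48 at 24 h and -0.68 from 5 h to 24 h. Over all tested features the medians were 0.010, 0.015 and -0.011. Without the 2 libraries that stood apart, 5 genes were called at 5 h (3 higher, 2 lower), 6 at 24 h (1 higher, 5 lower) and 7 from 5 h to 24 h (1 higher, 6 lower). Leaving them out favours such calls, as said above. CPM values did not overlap between the groups for 2 of the 8 genes at 5 h, for 6 at 24 h and for 1 between the D2O groups, against 69.3%, 76.3% and 61.2% of all tested features. Scaled by library size alone, the 3 genes called at 5 h were cox1, cob1 and atp8, each higher, and at 24 h 1 was higher and 3 lower. Both comparisons with the control use the same control samples. For any 1 of these genes taken alone, fewer mitochondrial genomes per cell and less RNA per genome cannot be told apart in bulk RNA.

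**Figure D1:**
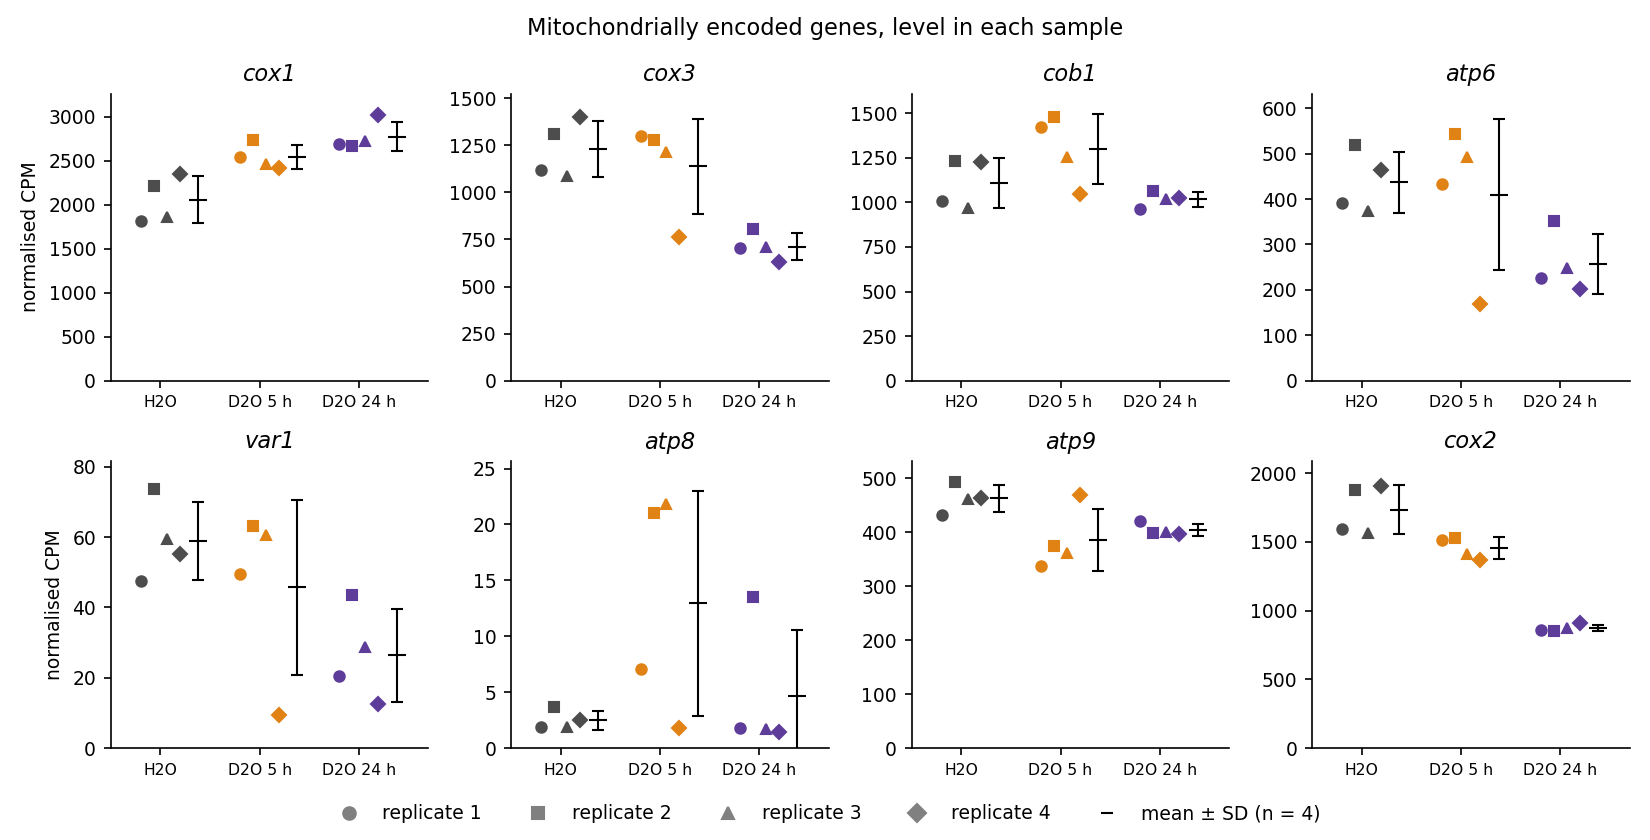
Normalised read counts (CPM, linear axis from 0) of the 8 mitochondrially encoded genes in the 12 samples. Each marker is 1 sample, the marker shape gives the replicate number, the black dash and bar are the group mean and SD (n = 4; a bar that would pass below 0 is clipped at the axis). cox1 was at 1812 to 2348 in the controls and at 2668 to 3016 at 24 h, whereas cox2 was at 1562 to 1902 in the controls and at 854 to 909 at 24 h.

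**Figure D2:**
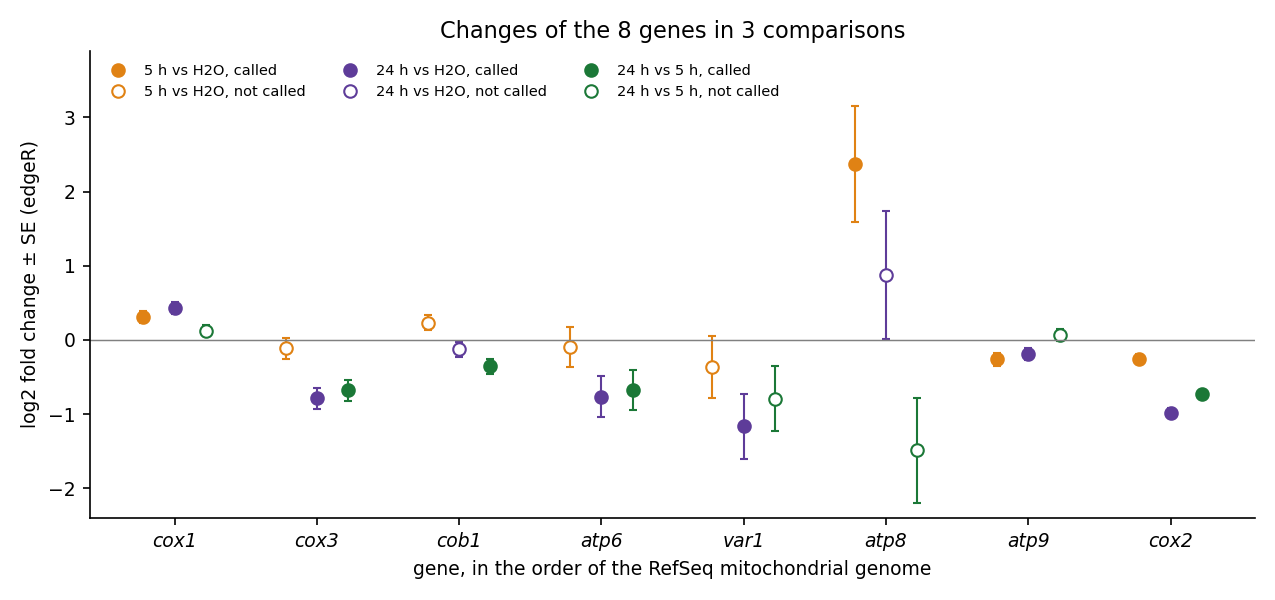
Log2 fold changes of the 8 genes in the 3 comparisons, with standard errors from edgeR, in the gene order of the mitochondrial genome. The change at 24 h runs from -1.16 for var1 to 0.88 for atp8, whose standard error is 0.86.

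Cytochrome c oxidase, complex IV, passes electrons from cytochrome c to oxygen. Its catalytic core is built of the 3 mitochondrial subunits, and these took different courses. cox1, the subunit with the oxygen-reducing heme and copper centre, had CPM values of 1812, 2212, 1853 and 2348 in control replicates 1 to 4. At 5 h they were 2543, 2736, 2464 and 2419, and at 24 h 2685, 2668, 2723 and 3016. Each D2O sample lay above the highest control, while the 5 h and 24 h samples overlapped. The rise was 1.24-fold at 5 h (log2 fold change 0.31, SE 0.078, adjusted p = 0.00255) and 1.35-fold at 24 h (log2 0.43, SE 0.078, adjusted p = 0.000128). Between 5 h and 24 h the difference was 0.13 on the log2 scale (adjusted p = 0.164).

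cox2, the subunit with the copper site that takes electrons from cytochrome c, had CPM values of 1596, 1880.3, 1562 and 1902 in the controls. They were 1512, 1528, 1414 and 1368 at 5 h and 862, 854, 872 and 909 at 24 h. The 3 groups did not overlap. Transcripts of cox2 fell by 0.25 on the log2 scale at 5 h (SE 0.066, adjusted p = 0.00287) and by 0.99 at 24 h (SE 0.067, adjusted p = 2.76e-09), when the control level was 1.98 times the D2O level. The step from 5 h to 24 h was -0.74 (SE 0.066, adjusted p = 2.52e-07), and this was the only gene of the 8 whose D2O groups did not overlap. Scaled by library size alone, the 5 h change was -0.058 and was no longer called (adjusted p = 0.515), and the change at 24 h was -0.81.

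cox3, the remaining core subunit, had CPM values of 1119, 1312, 1089.9 and 1401 in the controls and 1301, 1279, 1214 and 765 at 5 h. At 24 h they were 702, 806, 709 and 633. All 24 h samples lay below the controls, and 5 h replicate 4 lay inside the 24 h range while the other 5 h samples lay within the control range. The change at 5 h was -0.11 (SE 0.14, adjusted p = 0.488), and 0.040 without the 2 libraries that stood apart. At 24 h cox3 fell by 0.79 on the log2 scale (SE 0.14, adjusted p = 0.000121), a control level 1.73 times that in D2O. Without both libraries cox3 changed by -0.85. Between the D2O groups it fell by 0.68 (adjusted p = 0.000708), and by 0.89 without both libraries.

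Because the mitochondrial mRNAs of 1 sample share its scaling, their ratio does not depend on it. The ratio of cox2 to cox1, each per kilobase, was 1.90, 1.84, 1.82 and 1.75 in the controls. It was 1.28, 1.21, 1.24 and 1.22 at 5 h, and 0.694, 0.691, 0.692 and 0.651 at 24 h. The order of these 2 core subunits of the same enzyme thus turned over in each 24 h sample, and the groups did not overlap. cox3 per kilobase relative to cox1 averaged 1.18 ± 0.0257 in H2O, 0.881 ± 0.176 after 5 h of D2O and 0.509 ± 0.0746 after 24 h (SD, n = 4). Its groups did not overlap either, with 5 h replicate 4 at 0.623, close to the highest 24 h value of 0.596. Relative to cox2, cox3 averaged 0.646 ± 0.0172, 0.710 ± 0.134 and 0.745 ± 0.0926. As a share of the counts of all 8 genes, the cytochrome c oxidase genes together took 70.8% ± 0.797 in H2O, 70.6% ± 1.63 after 5 h of D2O and 71.8% ± 1.55 after 24 h. These ratios were chosen after the counts were seen and carry no test.

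**Figure D3:**
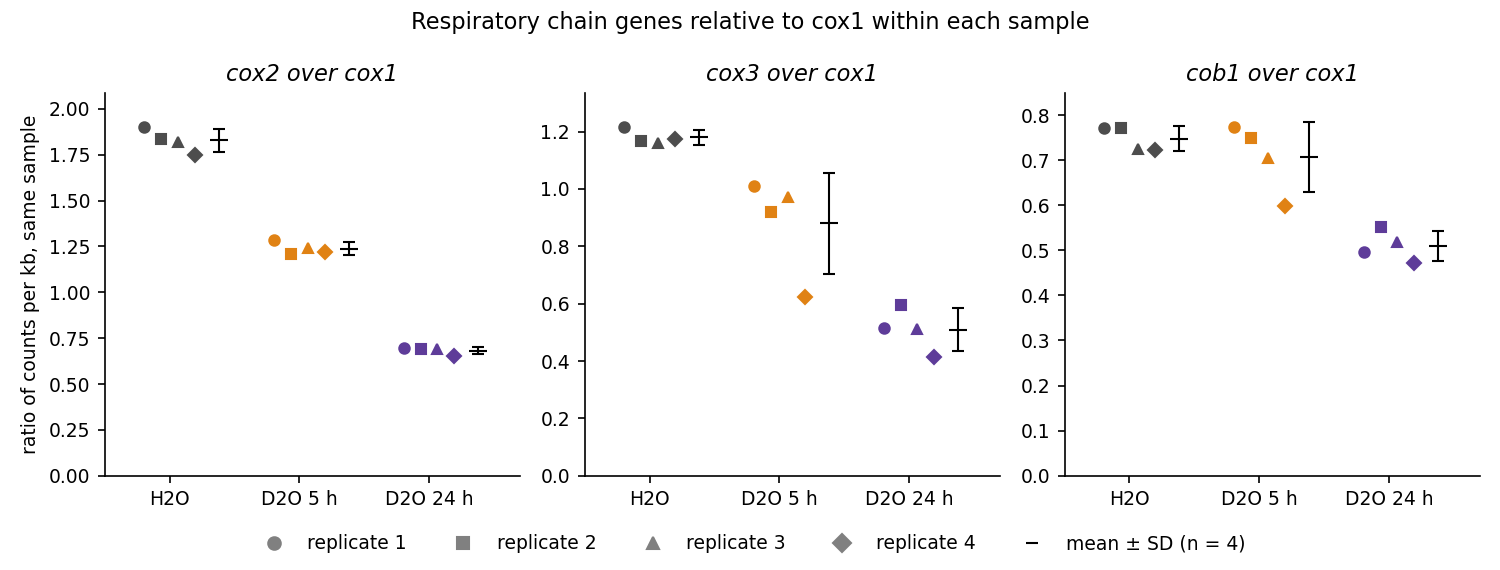
Ratio of other mitochondrially encoded genes to cox1 within each sample, both per kilobase of feature. Each marker is 1 sample and the black dash and bar are the group mean and SD (n = 4). The cox2 to cox1 ratio falls from a mean of 1.83 in the controls to 1.24 at 5 h and 0.682 at 24 h, with no overlap between groups.

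Cytochrome b, the product of cob1, carries the quinone sites of the bc1 complex, complex III. Its CPM values were 1007, 1231, 968 and 1224 in the controls, 1420.3, 1476, 1254 and 1045 at 5 h, and 962, 1062, 1019 and 1025 at 24 h. The 24 h samples lay within the control range except replicate 1, just below it, and 3 of the 4 samples at 5 h lay above the highest control. The change at 5 h was 0.23 (SE 0.10, adjusted p = 0.0531), just outside the threshold. It was 0.32 and called without the 2 libraries that stood apart (adjusted p = 0.00517), and 0.42 and called with library-size scaling (adjusted p = 0.00263). At 24 h the difference from control was -0.12 (adjusted p = 0.271), and 0.057 with library-size scaling. From 5 h to 24 h cob1 fell by 0.35 (SE 0.10, adjusted p = 0.00686). Without the 2 libraries that stood apart this step was -0.47. The ratio of cob1 to cox1 per kilobase averaged 0.748 ± 0.0273, 0.707 ± 0.0774 and 0.510 ± 0.0342 in H2O and after 5 h and 24 h of D2O, with the 24 h samples below all others.

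The 3 mitochondrial ATP synthase genes differed in how much they varied within a group. atp6, the stator subunit that forms the proton path with the rotating ring, had CPM values of 392, 518, 373 and 465 in the controls and 434, 544, 492 and 169 at 5 h. At 24 h they were 227, 351, 249 and 201. Replicate 4 at 5 h was the lowest of the 12 samples, while the other 5 h samples lay within the control range or just above it. The change at 5 h was -0.093 (SE 0.27, adjusted p = 0.766), and 0.17 without both libraries (adjusted p = 0.192). At 24 h atp6 fell by 0.77 (SE 0.27, adjusted p = 0.0185), with no overlap with the controls, and by 0.95 without both libraries. That call was lost with library-size scaling (-0.59, adjusted p = 0.0532), without control replicate 2 (-0.67) and without 24 h replicate 4 (-0.66). Between the D2O groups atp6 fell by 0.67 (adjusted p = 0.0406). This call was lost with DESeq2, with only the 2 groups in the model and without any 1 of 6 libraries (5 h replicates 1, 2 and 3 and 24 h replicates 1, 3 and 4), where the change lay between -0.66 and -0.51. Without both libraries that stood apart the change was -1.12 and called (adjusted p = 3.95e-06).

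atp8, a small stator subunit, was the least abundant of the 8 in the controls and the most variable. Its counts lay between 45 and 94 in the controls, between 50 and 619 at 5 h and between 42 and 371 at 24 h. In CPM these were 1.85, 3.69, 1.89 and 2.52 in the controls, 7.09, 21.0, 21.8 and 1.76 at 5 h, and 1.82, 13.5, 1.75 and 1.46 at 24 h. At 5 h 3 replicates lay above every control and replicate 4 lay below them, while at 24 h replicate 2 alone lay above every control. The change at 5 h was 2.37 on the log2 scale, or 5.16-fold (SE 0.78, adjusted p = 0.0130), with the groups overlapping, and 2.73 without both libraries (adjusted p = 9.41e-06). At 24 h the difference was 0.88 (adjusted p = 0.355), and -0.58 without both libraries (adjusted p = 0.289). Between the D2O groups it was -1.49 (adjusted p = 0.0748), and -3.31 without them (adjusted p = 1.07e-05).

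atp9 encodes the subunit of the rotating membrane ring. Its CPM values were 432, 493, 461 and 463 in the controls, 336, 375, 362 and 468 at 5 h, and 421, 399, 399.5 and 397 at 24 h. Here 5 h replicate 4, the low sample for atp6 and atp8, was the highest of its group and lay inside the control range, whereas the other 5 h samples lay below the controls. atp9 fell by 0.26 at 5 h (SE 0.083, adjusted p = 0.00994), and by 0.37 without both libraries. At 24 h it fell by 0.19 (SE 0.083, adjusted p = 0.0432), a call that was lost with library-size scaling and without any 1 of 7 libraries (control replicates 2, 3 and 4, 5 h replicate 2 and 24 h replicates 2, 3 and 4). With library-size scaling the change was -0.065 at 5 h (adjusted p = 0.493) and -0.010 at 24 h (adjusted p = 0.914). The step from 5 h to 24 h was 0.069 (adjusted p = 0.471), and 0.18 and called without both libraries (adjusted p = 0.0133).

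var1, the protein of the small mitochondrial ribosomal subunit, had CPM values of 47.4, 73.8, 59.4 and 55.1 in the controls, 49.6, 63.2, 60.6 and 9.33 at 5 h, and 20.5, 43.5, 28.8 and 12.6 at 24 h. The 24 h samples lay below the controls, and at 5 h only replicate 4 did, with the lowest value of the 12 samples. The change at 5 h was -0.37 (SE 0.42, adjusted p = 0.439), and -0.029 without both libraries. At 24 h var1 fell by 1.16 (SE 0.44, adjusted p = 0.0239), a control level 2.24 times that in D2O, and by 1.51 without both libraries (adjusted p = 1.92e-05). The call at 24 h was lost without control replicate 2 (-1.04), without 24 h replicate 1 (-1.06) and without 24 h replicate 4 (-0.93). The step from 5 h to 24 h was -0.80 (adjusted p = 0.121), and -1.49 and called without both libraries (adjusted p = 7.05e-05).

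Per kilobase, the order of the genes also changed. In the controls the mean RPKM was 2131 for cox2, 1882 for atp9, 1379 for cox3, 1169 for cox1, 874 for cob1, 518 for atp6, 79.0 for var1 and 15.6 for atp8. The ranges of cox2 and atp9 overlapped there, as did those of cox3 and cox1, and the other neighbours did not. At 5 h cox1 (mean RPKM 1654) stood above cox3 (1463), and atp8 (92.4) above var1 (70.2), with overlapping ranges in both pairs. At 24 h atp9 (mean RPKM 1869) and cox1 (1789) led with overlapping ranges, followed by cox2 (1218), cob1 (909), cox3 (904), atp6 (344), var1 (39.9) and atp8 (32.4). At that time cob1 overlapped cox3 and var1 overlapped atp8. The 8 genes together took 0.651% ± 0.0957 of the counts in H2O, 0.766% ± 0.0818 after 5 h of D2O and 0.632% ± 0.0283 after 24 h (SD, n = 4). The group ranges of these shares overlapped.

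The reading frames inside the introns encode proteins of the maturase and endonuclease kind, and reads on them can come from unspliced precursor or from excised intron. SPMIT.02, in the first cox1 intron, had CPM values of 228, 279.8, 199.6 and 293 in the controls, 227, 233, 204 and 169 at 5 h, and 132, 156, 151 and 162 at 24 h. It changed by -0.26 at 5 h (adjusted p = 0.0591) and fell by 0.73 at 24 h (SE 0.12, adjusted p = 5.18e-05), while cox1 itself rose. SPMIT.03, in the second, changed by -0.095 at 5 h (adjusted p = 0.528) and fell by 0.54 at 24 h (SE 0.13, adjusted p = 0.00182). Relative to the cox1 exons per kilobase, SPMIT.02 averaged 0.169 ± 0.0126 in H2O, 0.114 ± 0.0117 after 5 h of D2O and 0.0757 ± 0.00543 after 24 h. SPMIT.03 averaged 0.142 ± 0.0109, 0.108 ± 0.0138 and 0.0731 ± 0.00626. For both frames the 3 groups did not overlap in this ratio.

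SPMIT.06, in the cob1 intron, took another course. Its CPM values were 2333, 2593, 2280.2 and 2799 in the controls, 1699, 1826, 1638 and 1531 at 5 h, and 2273, 2200.1, 2354 and 2300.4 at 24 h. The 5 h samples lay below all others, and the 24 h samples overlapped the controls. It fell by 0.58 at 5 h (SE 0.067, adjusted p = 1.69e-06), rose by 0.45 from 5 h to 24 h (SE 0.067, adjusted p = 3.77e-05) and differed from control by -0.13 at 24 h (adjusted p = 0.0794). Relative to the cob1 exons per kilobase it averaged 1.09 ± 0.0529 in H2O, 0.625 ± 0.0569 after 5 h of D2O and 1.08 ± 0.0608 after 24 h. The ratio at 5 h, 0.574 to 0.704, lay below all other samples, and the other groups overlapped.

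**Figure D4:**
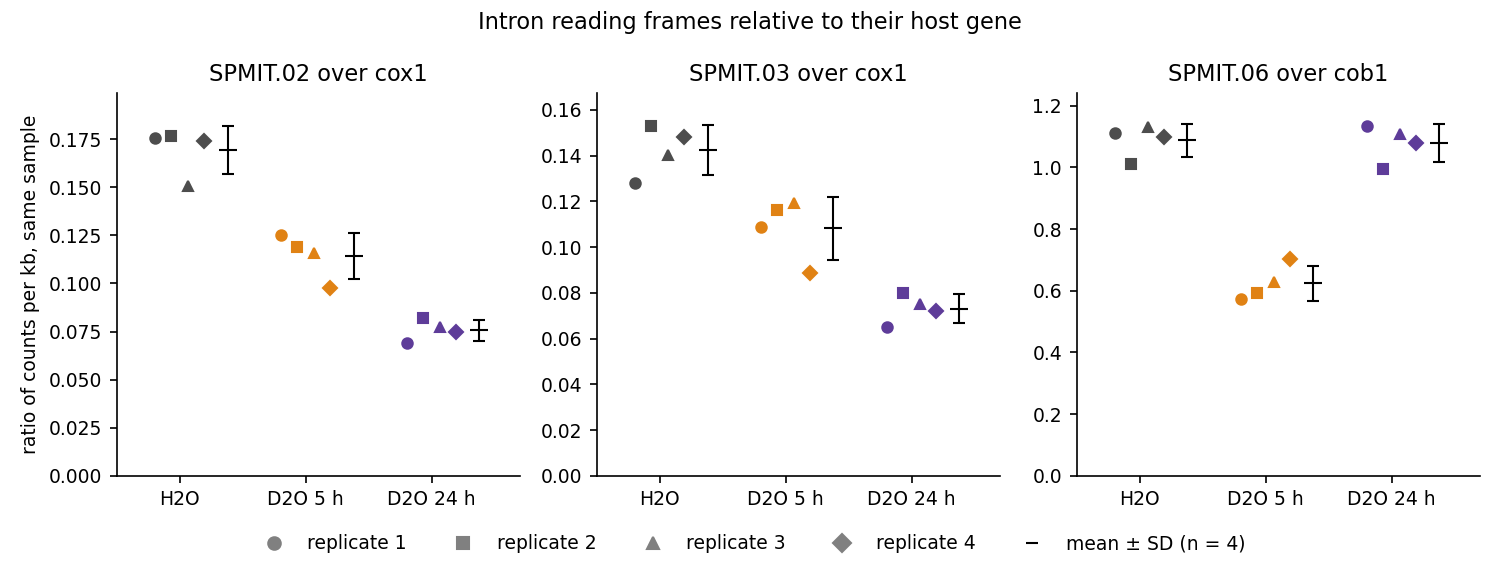
Reads on the intron reading frames relative to the exons of the same gene within each sample, both per kilobase. Each marker is 1 sample and the black dash and bar are the group mean and SD (n = 4). The 2 cox1 frames fall stepwise with time in D2O, whereas the cob1 frame is at a mean of 0.625 at 5 h and at 1.08 at 24 h.

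The mitochondrial tRNAs were far lower at 24 h. Their summed CPM was 153 ± 12.5 in H2O, 107 ± 3.77 after 5 h of D2O and 39.2 ± 4.14 after 24 h (SD, n = 4), without overlap between groups. Of the 25 listed, 21 passed the count filter. At 5 h 1 was higher and 10 lower (median log2 change -0.37), at 24 h 20 were lower and none higher (median -2.10), and from 5 h to 24 h 21 were lower and none higher (median -1.72). In those last 2 comparisons none was higher at an unadjusted p under 0.05, or by DESeq2. Of all tested features 37.3% were lower at 5 h, 39.4% at 24 h and 34.6% from 5 h to 24 h. With library-size scaling 2 of the mitochondrial tRNAs were higher and 7 lower at 5 h. These features hold few counts. Some may have passed the filter only through the controls or the 5 h samples, and for those a fall at 24 h was partly set in advance. The summed CPM takes in all 25 listed, also those that did not pass the filter. Of 171 nuclear tRNAs only 5 passed the filter, which keeps features that are high in 1 group, so their direction is partly set by it. Those 5 were also lower at 24 h (median log2 change -3.25). The fall is therefore not described as particular to the mitochondrial tRNAs. The 2 mitochondrial rRNAs were not called in any comparison. Their summed CPM was 69.96 ± 10.3, 58.7 ± 23.0 and 73.3 ± 42.3, with the spread at 5 h and 24 h holding the 2 libraries that stood apart.

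Nuclear genes for subunits of the same complexes ran higher at 24 h. Of the 32 measured subunits of complexes III, IV and V, after 5 h 14 had risen and 5 had fallen, after 24 h 22 had risen and none had fallen, and 15 were higher and none lower from 5 h to 24 h. Their median log2 changes were 0.076, 0.28 and 0.15, beside 0.010, 0.015 and -0.011 over all tested features. None was lower at 24 h or from 5 h to 24 h at an unadjusted p under 0.05 in edgeR, and DESeq2 called 1 lower at 24 h. With library-size scaling the split after 5 h was 21 higher and 2 lower. Without the 2 libraries that stood apart, edgeR again called none lower at 24 h, and from 5 h to 24 h it called 1 complex IV subunit and 1 complex V subunit lower. Of all tested features 39.1% were higher and 37.3% lower at 5 h, and 41.8% and 39.4% at 24 h. From 5 h to 24 h 33.6% were higher and 34.6% lower. The counts for each complex below stand beside the same shares.

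In complex III, the partners of cob1, 3 of 9 were higher and 2 lower at 5 h, and 6 were higher and none lower at 24 h. cyt1, cytochrome c1, fell by 0.58 at 5 h (SE 0.065, adjusted p = 1.23e-06) and rip1, the Rieske iron-sulfur protein, by 0.41 (adjusted p = 0.000142). From 5 h to 24 h cyt1 rose by 0.71 and rip1 by 0.83. The subunit qcr7 rose by 0.27, then reached 0.69 above control at 24 h (adjusted p = 1.94e-07). Without control replicate 2 the number called at 5 h was 3 (1 higher, 2 lower) in place of 5.

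In complex IV, the partners of cox1, cox2 and cox3, 2 of 8 were higher and 1 lower at 5 h, and 4 were higher and none lower at 24 h. cox13 was 0.38 higher on the log2 scale at 5 h (adjusted p = 3.72e-07) and 0.53 higher at 24 h (adjusted p = 5.24e-09), with CPM means of 78.5 ± 4.18, 102 ± 0.950 and 113 ± 2.82 (SD, n = 4). cox12 rose by 0.27 at 24 h, and cox5 fell by 0.20 at 5 h. In complex V 9 of 15 were higher and 2 lower at 5 h, and 12 were higher and none lower at 24 h. inh1, the inhibitor of the ATP-hydrolysing activity of ATP synthase, rose by 1.31 at 5 h (SE 0.095, adjusted p = 1.23e-08) and by 1.44 at 24 h (SE 0.095, adjusted p = 2.39e-09), from a mean CPM of 46.2 to 114 and 125. atp5 rose by 0.75 at 24 h and atp14 by 0.63 at 5 h, and the membrane subunit tim11 fell by 0.24 at 5 h.

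**Figure D5:**
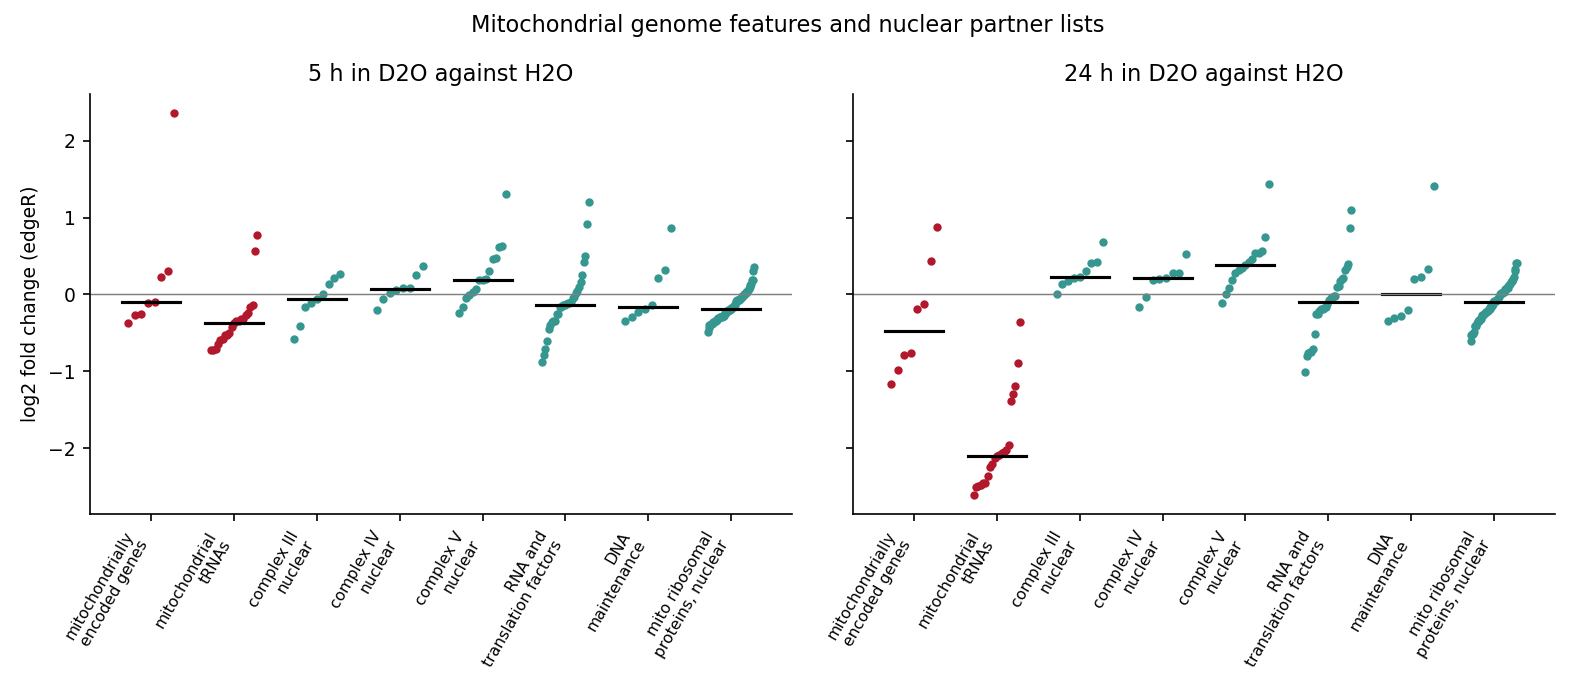
Log2 fold changes at 5 h and at 24 h in D2O against the controls. Red marks the 8 mitochondrially encoded genes and, in a separate column, the mitochondrial tRNAs tested. Teal marks each nuclear gene of the lists for the same complexes and for mitochondrial gene expression. The black bar is the median of each column. For the mitochondrial genes the median at 24 h is -0.48, and for the 9 nuclear subunits of complex III it is 0.23.

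Nuclear factors that make, process and translate mitochondrial RNA moved in both directions. Of the 30 measured, after 5 h 7 had risen and 15 had fallen, after 24 h 9 had risen and 14 had fallen, and between the D2O groups 8 rose and 10 fell. In either direction 76.4%, 81.2% and 68.3% of all tested features were called, so this list was not called more often than other features. The highest rises in the list were in pentatricopeptide repeat proteins, which bind organelle RNAs. ppr8 rose by 1.21 at 5 h and 0.87 at 24 h, and ppr1 by 0.92 and 1.10 (SE 0.042 for ppr1 in both). Others of this family, named after their values were seen, moved either way. At 5 h ppr2 rose by 0.42, while ppr3 fell by 0.35, ppr5 by 0.17 and ppr7 by 0.13. At 24 h ppr2, ppr4, ppr5 and ppr7 were higher than in the controls, and ppr6 fell by 0.26. mss116, whose budding yeast counterpart is an RNA helicase needed to splice mitochondrial introns, fell by 0.88 at 5 h (adjusted p = 3.25e-11) and by 0.80 at 24 h (adjusted p = 4.13e-11). oxa102, a member of the Oxa1 family that inserts mitochondrial proteins into the inner membrane, fell by 0.79 and 1.01. Later, from 5 h to 24 h, ppr5 rose by 0.48 and ppr7 by 0.34. Over the same step the elongation factor tsf1 fell by 0.41 and ppr8 by 0.34. The mitochondrial RNA polymerase rpo41, named after its values were seen, changed by -0.10 at 5 h (adjusted p = 0.0285) and by 0.098 at 24 h (adjusted p = 0.0305). With library-size scaling 11 rose and 9 fell at 5 h, and 14 rose and 7 fell at 24 h.

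Of 8 genes for the upkeep of mitochondrial DNA, 3 rose and 5 fell at 5 h, while 4 rose and 4 fell at 24 h. Of all tested features 76.4% were called at 5 h and 81.2% at 24 h. cmb1, an HMG-box DNA-binding protein, rose by 0.87 at 5 h and 1.41 at 24 h (SE 0.056 for both), from a mean CPM of 37.9 to 69.2 and 100.5. pog1, the mitochondrial DNA polymerase, fell by 0.30 at 24 h (SE 0.033, adjusted p = 5.49e-07), and the helicase pfh1, which also works in the nucleus, fell by 0.35 at 5 h. With library-size scaling 3 rose and 1 fell at 5 h, and 4 rose and 2 fell at 24 h.

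Among 60 nuclear genes for mitochondrial ribosomal proteins, the partners of var1, after 5 h 7 had risen and 33 had fallen, and after 24 h 8 had risen and 26 had fallen. Between the D2O groups 16 were higher and 7 lower. Of all tested features 39.1% were higher and 37.3% lower at 5 h, and 41.8% and 39.4% at 24 h. Between the D2O groups these shares were 33.6% and 34.6%. rsm23 fell by 0.49 at 5 h (SE 0.047, adjusted p = 2.38e-07) and mrpl25 by 0.61 at 24 h (SE 0.059, adjusted p = 1.67e-07), while mrps12 rose by 0.36 and 0.40. The balance of this list turned with the scaling: with library size alone 17 had risen and 10 had fallen after 5 h, and 22 and 12 after 24 h. That scaling moved the median change of all tested features up by 0.20 at 5 h and 0.18 at 24 h.

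Over the 12 samples the genes fell into unlike profiles. The highest Pearson r of log2 CPM between 2 of the 8 genes was 0.962, for atp6 and var1, followed by 0.909 for cox3 and atp6 and 0.890 for cox2 and cox3. atp9 was most like cox2, with an r of 0.308, and cox1 most like atp8, with 0.242. cox1 had an r of -0.63 with cox2 and -0.48 with cox3. The samples share their scaling and 2 of them stood apart, so these values describe these libraries. The nuclear genes whose pattern was most like the mean of the 8, among 4875 protein-coding features whose log2 CPM averaged 3 or more, were mrpl32 (r 0.928), mis19 (0.915), ham1 (0.907), mde2 (0.896) and vma4 (0.894). Their own log2 changes at 24 h lay between -0.31 for mis19 and -0.042 for ham1, so the likeness is of shape and not of size. The mean of the 8 was taken on centred log2 CPM without scaling, so the variable atp8 and var1 weigh most in it. Within the 5 h group alone it ran from -0.55 to 0.61, so spread within groups enters these r values too.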

How the data were processed

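RNA sequencing of 12 wild-type S. pombe samples (3 groups of 4) was analysed from the authors' tables, 1 per sample. The deposited tables hold, for each of 7015 features, the whole-number read count, the length and the RPKM. Recomputing the deposited RPKM from count, length and column total gave a largest relative difference of 4.96e-06. Reads were aligned with BWA 0.7.12, per the submitters' processing notes. The counting program, genome build, strandedness and any selection of RNA are not given in the sources used here, so reads from overlapping features cannot be told apart.

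Differences in counts were tested by quasi-likelihood in edgeR 4.0.16 (limma 3.58.1, R 4.3.3). All 12 samples entered 1 model with group as the only term, TMM scaling and the filterByExpr minimum of 10 counts. TMM factors were 0.879 to 0.944 in the controls and 1.01 to 1.07 in D2O. Calls used an adjusted p under 0.05 over 6683 features. The SE is the absolute log2 change divided by the square root of F. On simulated counts, 100 features were changed at each of 2 sizes. In each comparison 100 of 100 were recovered at each size, with 8 to 13 false calls among 6668 features. The sizes were 1 and 2 on the log2 scale against the control, and 2 and 4 between the D2O groups. Smaller sizes were not tested, and recovery was not tested for the 8 genes themselves. All simulated features were given the same dispersion, and low-count features were not among those changed. In the data the SD within a group reached 128% of the mean for atp8 and 54.6% for var1, more than was simulated. The recovery therefore does not carry over to such genes. Alternatives were other scalings, filters and models, DESeq2 1.42.0, a replicate block and leaving out each sample.

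The genes, lists and tests were chosen with earlier results of these data known. All 8 genes are described. From each nuclear list and comparison the text could name up to 2 called genes with the largest rise and 2 with the largest fall. The 5 genes most alike in pattern were ranked by Pearson r. Of 32 listed RNA factors 31 matched, to 30 features, and of 9 DNA maintenance genes 8 matched. After the tables were seen, mip1 and rsm1 were taken off the lists because in S. pombe these symbols name other proteins. Counts limit the precision of atp8 and of the tRNAs most.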

Additional observations from a re-analysis of the deposited data

Results flagged for a closer look

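Single samples lay far from the other 3 of their group, by Dixon's test, in 5 of 39 groups examined, where chance alone marks about 1 in 20 groups. These were cox1 in 24 h replicate 4 (3016 CPM, high), cox3 in 5 h replicate 4 (765 CPM, low), atp8 in 24 h replicate 2 (13.5 CPM, high) and atp9 in 24 h replicate 1 (421 CPM, high). The ratio of SPMIT.02 to the cox1 exons was low in control replicate 3, at 0.150. The ratios between the cytochrome c oxidase genes are not in this count, and single samples lay apart in them too. At 24 h the cox2 to cox1 ratio was 0.651 in replicate 4, beside 0.691 to 0.694 in the others. At 5 h the cox3 to cox2 ratio was 0.510 in replicate 4, beside 0.763 to 0.785 in the others.

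The change from control differed between 24 h and 5 h for 4 genes, tested as the difference between the D2O groups in edgeR's quasi-likelihood model. That difference was -0.68 on the log2 scale for cox3 (adjusted p = 0.000708), -0.35 for cob1 (adjusted p = 0.00686), -0.67 for atp6 (adjusted p = 0.0406) and -0.74 for cox2 (adjusted p = 2.52e-07). For cox3, cob1 and atp6 the CPM ranges of the D2O groups overlapped through 5 h replicate 4, and the part of that library in the result was not tested. Without 5 h replicate 4 the differences were -0.83, -0.44 and -0.93.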

How the results depend on the processing

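Each change of the 8 genes was recomputed under 23 alternatives. Of the 552 values, 500 kept their direction and side of the threshold, 19 gained a call, 24 lost one and 9 changed sign. At 5 h library-size scaling turned the sign of cox3 (0.085), atp6 (0.10) and SPMIT.03 (0.098). Leaving out 5 h replicate 4, with or without 24 h replicate 2, turned cox3 (0.040 in both), atp6 (0.17 in both) and SPMIT.03 (0.0085 and 0.0084). At 24 h cob1 (0.057) and SPMIT.06 (0.050) turned with library-size scaling, and atp8 (-0.58) turned without 24 h replicate 2, alone or with 5 h replicate 4. Leaving out 1 sample at a time, the changes lay between -0.18 and 0.040 for cox3, between -0.26 and 0.17 for atp6 and between -0.19 and 0.0084 for SPMIT.03 at 5 h, and between -0.58 and 1.18 for atp8 at 24 h. None of these was a called change. The cause was not tested.

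Leaving out 1 sample at a time, between 4 and 5 genes were called at 5 h, between 3 and 6 at 24 h (3 without control replicate 2 or without 24 h replicate 4) and between 3 and 7 from 5 h to 24 h (7 without 5 h replicate 4, and 7 without both libraries that stood apart). For complex III at 5 h the range was 3 to 5. With only the 2 groups in the model 5 complex IV subunits were called from 5 h to 24 h, in place of 3. With library-size scaling 4 DNA maintenance genes were called at 5 h, in place of 8. Relative to protein-coding counts, the 8 genes took 0.852% at 5 h and 0.706% at 24 h. That denominator leaves no tRNA to test.

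Same-numbered samples deviated together in some pairs only: the correlation of their deviations lay between -0.18 and 0.58. It was 0.58 for replicate 2 of the D2O groups, and 0.41 for 24 h replicate 4 with replicate 4 of either other group. In all other pairs it was 0.12 or lower. The cause was not tested. With the replicate number as a block, 5, 6 and 5 genes were called at 5 h, at 24 h and from 5 h to 24 h, against 4, 6 and 4.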
